A study of Gallus gallus with 3 samples.

Results

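Mature miRNAs are cut from a hairpin as a duplex of 2 strands. The guide strand is loaded into an Argonaute protein and recognises its targets mainly through the seed near its 5′ end, whereas the other strand, called the passenger or star strand, is usually degraded. The names with a star were given to the strand that had been cloned less often when the hairpin was described, so a name does not fix which strand is kept in a given tissue. The arrays of chicken embryo leg muscle described here carried 542 miRNA probes, of which 76 had a name ending in a star and were taken as the star strands. gga-miR-140* was not analysed here. For 73 of the 76, a probe of the same name without the star was present and is called the guide below. gga-miR-1690*, gga-miR-1751* and gga-miR-1784* had no such partner.

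Normal recessive White Rock chickens, a meat-type line, were compared with dwarf recessive White Rock chickens, which by the study's methods carry a deletion reaching from the last coding exon into the end of the growth hormone receptor gene GHR. Leg muscle was taken from female embryos after 14 days of incubation, with skin and bones removed. Each strain gave 3 RNA pools of 3 embryos each, and each of the 3 arrays was hybridised with 1 normal and 1 dwarf pool in different dyes. The dwarf pool was in Cy5 on arrays 1 and 3 and in Cy3 on array 2, so 2 of 3 arrays had the same orientation. The deletion and any other difference between the strains cannot be told apart, and with pooled bulk RNA fewer cells of a type and less RNA per cell cannot be told apart.

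Every miRNA was printed in 6 spots. The signal of a probe in a pool is the mean intensity of its 6 spots minus the median of the 424 empty spots in that channel, and a signal above 32, the study's own standard, is called over the limit. Of 7 muscle miRNAs, 6 were over the limit in every pool and gga-miR-1b was in none. Of 6 epithelial miRNAs, all were over the limit in at least 1 pool, but only 1 in every pool. Their summed signal, weighted toward the brightest members and not normalised between dyes, was 276 to 19562 in normal pools and 28208 to 50581 in dwarf pools, without overlap. The muscle sum was 30235 to 69836 in normal and 14209 to 46692 in dwarf pools, with overlap. In log2 of dwarf over normal after normalisation, gga-miR-205b had 1.42, 1.03 and -0.51. The other epithelial members were higher in dwarf on all 3 arrays. The part of the epithelial sum in the strain ratios given below was not tested. Of 5 leukocyte miRNAs, 3 were over the limit in at least 1 pool and none in every pool, and gga-miR-142-3p and gga-miR-142-5p were over it in none. Their summed signal was 55.8 to 1808 in normal and 445 to 882 in dwarf pools, with overlap.

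Of the 76 star strands, 9 were over the limit in at least 1 pool. They are shown with their guides, because they carry the measurements described below. The sequences are the targets printed in the array files, 5′ to 3′, and the capitals mark the seed, bases 2 to 8.
gga-miR-199*: uACAGUAGucugcacauugg
gga-miR-199: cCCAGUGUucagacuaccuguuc
gga-miR-1668*: gUGGGCUGggagcacaggcacu
gga-miR-1668: uGCUGUGUccucacucaccuu
gga-miR-1560*: gCGGCGCGagcagagaggcgcu
gga-miR-1560: gCAUCUCUggacgcgcucguuc
gga-miR-1621*: gGUUCGCCgugccgccgcgc
gga-miR-1621: aCCGGCUGccucgguggcac
gga-miR-146c*: aGUCCAUGguauucaguucucu
gga-miR-146c: uGAGAACUgaauuccauggacug
gga-miR-1648*: uGGGAGUGgagcggagcuguc
gga-miR-1648: cGGCUCGGcucggcuccgcuc
gga-miR-1677*: uCCUGCACcgcugaagucaau
gga-miR-1677: uGACUUCAguaggagcaggauu
gga-miR-449b*: cAGUCACUaccacacugccac
gga-miR-449b: aGGCAGUGugcuguuagcggcug
gga-miR-126*: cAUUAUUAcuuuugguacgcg
gga-miR-126: uCGUACCGugaguaauaaugcgc

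None of these 9 star strands shared its seed with another probe on the array. Among the guides, gga-miR-146c had the seed of gga-miR-146a and gga-miR-146b, and gga-miR-449b had that of gga-miR-34a, gga-miR-34c, gga-miR-449 and gga-miR-449c. In the RefSeq annotation of GRCg7b, all 9 hairpins matched a miRNA gene. The gga-miR-126 hairpin lies in EGFL7, a gene of endothelial cells. The gga-miR-199 hairpin has 2 copies, MIR199A2 on chromosome 8 within the span of DNM3 and MIR199B1 on chromosome 17 within that of DNM1. Both of these genes encode dynamins, which act in membrane fission. The hairpins of gga-miR-1560, gga-miR-1668, gga-miR-1677 and gga-miR-146c lie in ANKRD11, DIP2B, EPHA7 and DDRGK1, and that of gga-miR-1648 lies in no annotated gene. Hairpins and genes were matched by position only, without regard to strand, so a shared transcript is not implied.

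Star strands were seldom over the limit. At least 1 pool was over it for 9 of 76 (11.8%), against 149 of all 542 probes (27.5%), and every pool for 1 of 76 (1.32%), against 85 of 542 (15.7%). The first number depended on the limit, with 15 star strands over 16 and 3 over 100 in at least 1 pool. It was 7 when the 95th percentile of the empty spots was subtracted in place of their median. Of the 73 guides, 19 (26.0%) were over the limit in at least 1 pool and 11 in every pool. The 1 star strand in every pool was gga-miR-199*. Leaving out array 2 raised the number over the limit in every remaining pool to 2, by adding gga-miR-1668*.

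The number of star strands over the limit was 4, 2 and 8 in the normal pools of arrays 1, 2 and 3, and 2, 5 and 3 in the dwarf pools. The mean was 4.67 ± 3.06 (SD, n = 3) in normal and 3.33 ± 1.53 (SD, n = 3) in dwarf. The strains overlapped, and the difference of -1.33 gave p = 0.75 in a two-sided exact sign-flip test over the 3 arrays, which cannot go below 0.25. Without array 3 the difference was 0.50, in the opposite direction. By dye, the counts were 4, 5 and 8 in the Cy3 pools and 2, 2 and 3 in the Cy5 pools. On each array the pool in Cy3 had the higher count, whichever strain it was. The same held over all 542 probes, with 125, 90 and 142 over the limit in normal and 101, 124 and 117 in dwarf pools. The order by dye was thus not particular to star strands, and the part of the dye in these counts was not tested.

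The 67 star strands over the limit in no pool mostly lay around the empty spots, and the median of their mean signals was -7.64. Their highest signal was 25.5, for gga-miR-1625* in the dwarf pool of array 2. In that channel the 95th percentile of the empty spots was 11.9 above their median. gga-miR-1764* was above the median empty spot in every pool, at 2.6 to 22.7. Of the 9 over the limit, the one with the lowest top signal was gga-miR-449b* at 53.5.

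**Figure D1:**
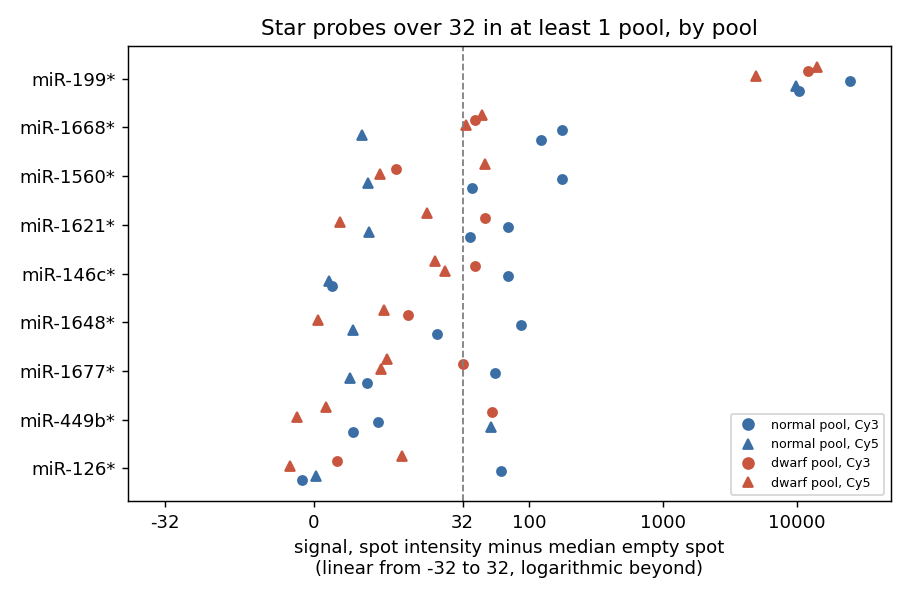
Signal of the 9 star strands over 32 in at least 1 pool, 1 point per pool, in intensity units (linear from -32 to 32, logarithmic beyond). Colour gives the strain, shape gives the dye and the dashed line is the limit of 32. Only gga-miR-199* lies over the limit in all 6 pools.

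gga-miR-199* was the brightest star strand by far. miR-199 is known from mesenchymal tissues, and both of its strands act as guides in vertebrates. In normal muscle its signal was 10366, 9890 and 24988 on arrays 1 to 3, and in dwarf muscle it was 4931, 12208 and 14021. The guide gga-miR-199 gave 938, 320 and 3589 in normal and 203, 809 and 658 in dwarf muscle. The star probe was thus brighter than the guide probe in each of the 6 pools, and the strains overlapped for both strands. All 36 spots of gga-miR-199* (6 in each of 6 pools) lay above the 95th percentile of the empty spots.

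The probe gga-miR-199b gave nearly the same values as gga-miR-199*, with 10581, 8708 and 25379 in normal and 4512, 11497 and 13386 in dwarf pools. The targets of both probes share 16 bases, from base 3 of gga-miR-199* on, so their signals cannot be told apart. The target of gga-miR-199b is shown to make the overlap visible; because it starts further inside, its own bases 2 to 8 differ from those of gga-miR-199*.
gga-miR-199b: cAGUAGUCugcacauuuggu

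The signal of gga-miR-199* over that of gga-miR-199 was 11.1, 30.9 and 6.96-fold in normal and 24.3, 15.1 and 21.3-fold in dwarf muscle. These folds compare 2 probes, which can bind and fluoresce differently, and are not ratios of molecules. On the log2 scale the difference was 3.74 ± 1.10 (SD, n = 3) in normal and 4.31 ± 0.35 (SD, n = 3) in dwarf, with overlap between the strains. It was 2.80 to 3.92 in the Cy3 pools and 4.41 to 4.95 in the Cy5 pools, without overlap. The values were therefore sorted by dye and not by strain, and the part of the dye was not tested.

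**Figure D2:**
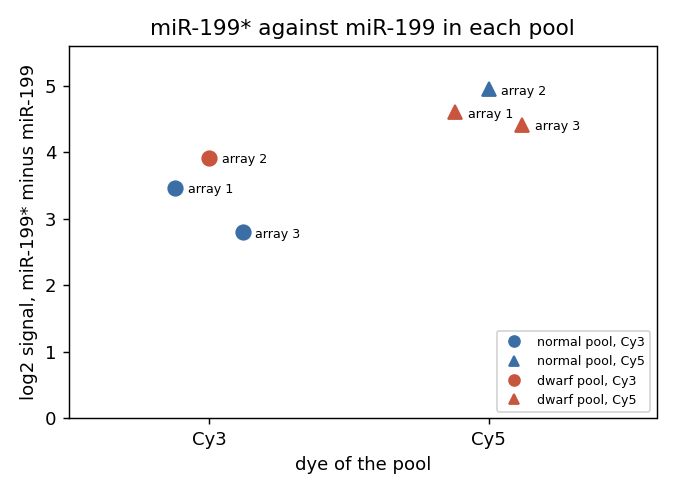
Difference in log2 signal between gga-miR-199* and gga-miR-199 in each pool (vertical axis), by dye (horizontal axis), with strain as colour and the array beside each point. The 3 Cy5 pools lie at 4.41 to 4.95 and the 3 Cy3 pools at 2.80 to 3.92.

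In 24 of the 73 pairs, miR-199 included, a probe was over the limit in at least 1 pool. The guide was brighter in every pool in 16 of the 24, the star in 6, and 2 were mixed. At a limit of 16 the star was brighter in 9 of 29 such pairs, and at a limit of 100 in 3 of 19. In 15 pairs the guide was over the limit in at least 1 pool and the star in none. In 5 pairs the star was over it and the guide in none, and in 4 pairs both were over it in some pool. Where only 1 strand was over the limit, the choice of pairs by signal itself partly set which probe was brighter. The 49 pairs with neither probe over the limit are left out of these counts.

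Among the 15 pairs with a dim star were guides with high signals. gga-miR-454 ranged from 1672 to 9210, with a median of 2822 over the 6 pools, while gga-miR-454* stayed between -30.4 and -1.1. gga-miR-181a, a regulator of muscle and lymphoid differentiation, ranged from 1125 to 7565 and its star from -1.7 to 21.3. For these pairs no pool of the star reached the lowest pool of the guide. The same held for gga-miR-99a, gga-miR-15c, gga-miR-1451 and gga-miR-1416, whose guides had medians of 1084, 1166, 1189 and 1140 and whose stars had highest signals of 11.5, 5.4, 7.3 and 5.0. gga-miR-10a, encoded in a Hox cluster, ranged from 6.8 to 717, and its star had a highest signal of 5.0.

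**Figure D3:**
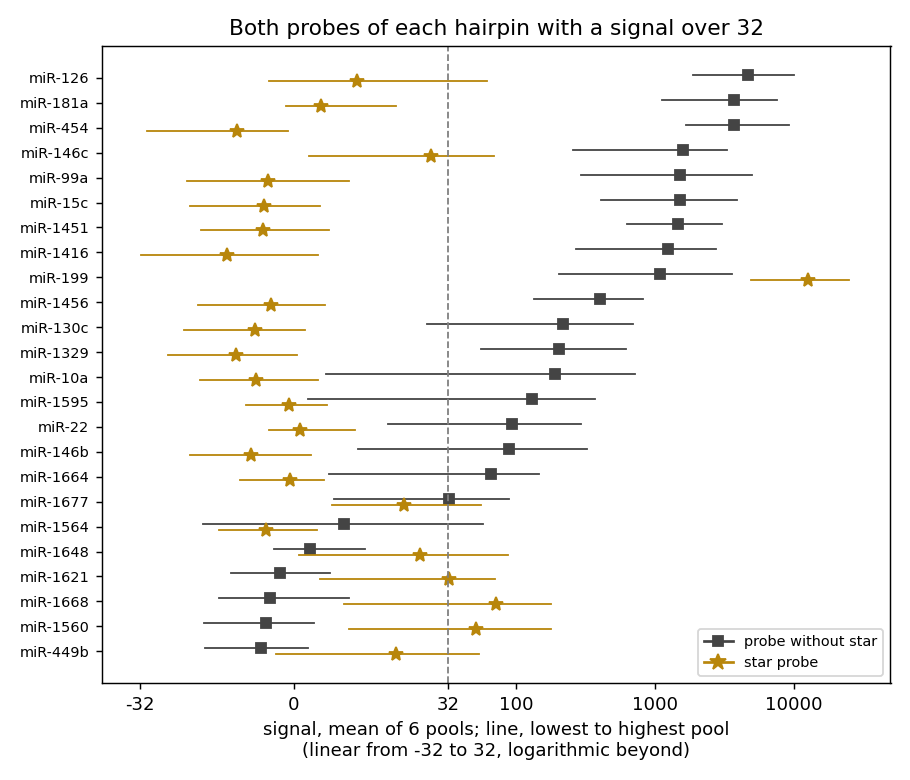
Mean signal over 6 pools of the star probe (star) and the guide probe (square) in the 24 pairs with either over 32 in at least 1 pool, with lines from the lowest to the highest pool, in intensity units (linear from -32 to 32, logarithmic beyond). The guide was brighter in every pool in 16 pairs and the star in 6.

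Of the 6 pairs with the star brighter in every pool, 5 had a guide that was over the limit in no pool. gga-miR-1668* gave 122, 10.4 and 177 in normal muscle and 33.9, 39.4 and 44.6 in dwarf muscle, and was over the limit in 5 of 6. Its guide gave at most 11.4. The dwarf values lay inside the range of the normal values, and 35 of the 36 spots were above the 95th percentile of the empty spots. gga-miR-1560* gave 37.3, 11.6 and 177 in normal and 14.3, 17.8 and 47.0 in dwarf pools. gga-miR-1621* gave 36.5, 11.9 and 70.1 in normal and 5.6, 46.9 and 24.2 in dwarf pools. Both were over the limit in 3 pools, the strains overlapped, and their guides had highest signals of 4.1 and 7.5. Of their 36 spots each, 24 and 25 were above the 95th percentile of the empty spots. In the normal pool of array 1 that percentile was 49.4 above the median, and 2 of 6 spots of each probe passed it. In the normal pool of array 2 it was 2.91 above the median, and all 6 spots of each probe passed it. gga-miR-1648* was over the limit only in the normal pool of array 3, with 86.7, and its guide had a highest signal of 14.9.

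gga-miR-449b* rested on few spots. miR-449 miRNAs are known from multiciliated epithelia. Its signal was 52.3 in the normal and 53.5 in the dwarf pool of array 2 and at most 13.9 elsewhere. Only 6 of its 36 spots were above the 95th percentile of the empty spots. On array 2 a single spot per channel carried the signal, 300 in Cy5 and 301 in Cy3 above the median empty spot. The next brightest spots there were at 5.58 and 11.5. When the median of the 6 spots was used in place of the mean, gga-miR-449b* was over the limit in no pool, and the number of star strands over it in at least 1 pool was 8.

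In 3 of the 4 pairs with both strands over the limit, the guide had the higher top signal. gga-miR-146c, of a family known from inflammatory signalling, gave 254.7 to 3295 over the 6 pools. Its star gave 3.8, 3.2 and 69.6 in normal and 28.1, 39.9 and 26.0 in dwarf pools, and the strains overlapped. gga-miR-126, an endothelial miRNA, ranged from 1884 to 10144. gga-miR-126* was over the limit in the normal pool of array 3 only, with 61.8, and the next value was 19.0. gga-miR-1677 and its star were both dim, with highest signals of 88.4 and 55.8, and which strand was brighter changed from pool to pool. Another hairpin with mixed order, gga-miR-1564, had a guide with a highest signal of 57.9 on array 2 and a star over the limit in no pool. That guide value also rested on a single spot per channel, 351 in Cy5 and 327 in Cy3 above the median empty spot, where the next brightest spots were at 0.52 and 11.3. With the median of spots, 22 pairs had a probe over the limit.

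Hairpins whose strands are named by arm, as -5p and -3p, gave a comparison that does not depend on the star names. Of 11 such pairs, 5 had an arm over the limit in some pool and 2 had both arms over it in every pool. The latter were gga-miR-30a, with the -5p arm brighter, and gga-miR-455, with the -3p arm brighter.

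Base composition differed among the star strands over the limit. The share of G and C in the target was 85.0% for gga-miR-1621*, 77.3% for gga-miR-1560*, 68.2% for gga-miR-1668* and 66.7% for gga-miR-1648*, whereas gga-miR-199* had 45.0%. Of the 16 star strands with at least 60% G and C, 4 (25.0%) were over the limit in at least 1 pool, against 5 of 60 (8.33%) of the others. Among probes named without a star the shares were 23 of 91 (25.3%) and 116 of 374 (31.0%), so the order of the 2 classes was the reverse there. The shares are a description, and the part of base composition in the signals was not tested.

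**Figure D4:**
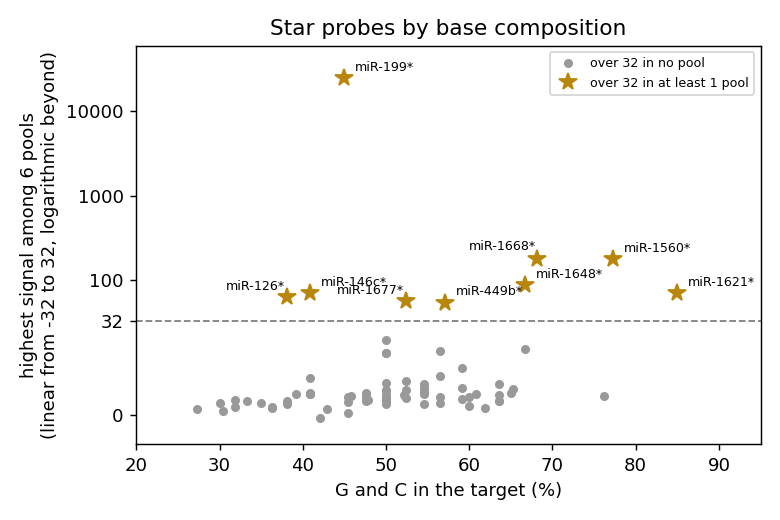
Highest signal among the 6 pools (vertical axis, intensity units, linear from -32 to 32 and logarithmic beyond) against the percentage of G and C in the target (horizontal axis) for the 76 star strands. Of the 9 over 32, 4 have over 60% G and C, and gga-miR-199*, the brightest, has 45.0%.

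The first base was compared between the strands of the pairs with a probe over the limit. A 5′ U is known to favour loading into Argonaute. In the 16 pairs with the guide brighter, the guide began with U in 10 and the star in 2. In the 6 pairs with the star brighter, the guide began with U in 1 and the star in 2, gga-miR-199* and gga-miR-1648*. Over all probes 246 of 542 (45.4%) began with U, over the star strands 31 of 76 (40.8%) and over their guides 34 of 73 (46.6%). The compared pairs were chosen by signal and are few, and the part of the first base in the signals was not tested.

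The strain ratio was then taken within each array, as log2 of dwarf over normal after loess normalisation, and tested with limma for the 127 miRNAs whose mean signal exceeded 32. The deposited sample titles write normal over dwarf, and all ratios here run the other way. Only 4 of the 76 star strands were tested, gga-miR-199*, gga-miR-1668*, gga-miR-1560* and gga-miR-1621*. The last of them had a mean signal of 32.5, and gga-miR-146c*, just outside, 28.4. None of the 4 passed an adjusted p of 0.05 (limma, Benjamini-Hochberg), and over all 127 miRNAs the share was 0%. None of the 4 had an unadjusted p under 0.05 either, against 14 of 127 (11%). The methods' t-test, unpaired on channel values and at an unadjusted p under 0.01, called none of the 4. Its share over all 127 was not taken.

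gga-miR-199* had log2 ratios of -0.21, -0.44 and 0.12 on arrays 1 to 3. It was lower in dwarf on 2 of 3 arrays, with a mean of -0.18 (SE 0.17, n = 3), a 95% interval of -0.64 to 0.29 and an adjusted p of 0.824 in limma. The mean was -0.04 without array 2 and -0.33 without array 3. gga-miR-199b, which shares its sequence, had ratios of -0.36, -0.36 and 0.04. The guide gga-miR-199 had ratios of -0.85, 0.07 and -0.84, a mean of -0.54 (SE 0.25, n = 3) and an adjusted p of 0.464 in limma. The arrays did not have the same sign for either strand. The star ratio minus the guide ratio was 0.64, -0.51 and 0.96, with a mean of 0.36 ± 0.77 (SD, n = 3) and p = 0.50 in a two-sided exact sign-flip test, which cannot go below 0.25. This mean was 0.23 without array 1, 0.80 without array 2 and 0.065 without array 3. The star ratio minus the guide ratio was positive on arrays 1 and 3, with dwarf in Cy5, and negative on array 2, with dwarf in Cy3. With a dye coefficient its mean was 0.15, and the part of the dye was not tested. A strain difference between the 2 strands was not detectable with 3 arrays.

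gga-miR-1668* had ratios of -0.19, -0.04 and -0.0019, the last barely below 0, with a mean of -0.08 (SE 0.12, n = 3) and an adjusted p of 0.945 in limma. Before normalisation its signal was lower in dwarf on arrays 1 and 3 and higher on array 2, at 10.4 in normal and 39.4 in dwarf. Over the 127 miRNAs, 24 (18.9%) were lower in dwarf on all 3 arrays. gga-miR-1560* had a mean of -0.06 and gga-miR-1621* a mean of -0.00, and both changed sign between arrays. The median ratio was -0.07 over the 4 star strands and -0.05 over all 127 miRNAs. An offset of 50 was added before logarithms, which draws the ratios of dim probes toward 0, so the ratios of all tested star strands but gga-miR-199* understate any difference.

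Star strands too dim for the test are given as values. gga-miR-146c* had ratios of 0.61, 0.19 and 0.16, and its guide gga-miR-146c had 1.75, 1.01 and 0.36. After loess both were higher in dwarf on all 3 arrays. Of the 127 tested miRNAs, which include the guide but not the star, 17 (13.4%) were so. In the signals before normalisation, both were higher in dwarf on arrays 1 and 2 and lower on array 3. There the guide gave 3295 in normal and 1540 in dwarf, and the star 69.6 and 26.0. The guide mean was 1.04 (SE 0.31, n = 3) with an adjusted p of 0.324 in limma. Both strands of this hairpin had their highest ratio on array 1. The guide shares a long stretch of bases with 2 other probes on the array. The longest, 19 bases, is shared with gga-miR-146a, of the leukocyte list, which had ratios of 2.25, 1.27 and 0.15. The part of shared signal was not tested. gga-miR-146b, which has the same seed, had 0.48, -0.01 and -0.34. From the leukocyte list, gga-miR-223 had -0.20, 0.14 and 0.09. Both changed sign between arrays. The rest of that list was too dim for the test. There gga-miR-155 had -0.03, -0.10 and -0.06, lower in dwarf on all 3 arrays. gga-miR-142-3p and gga-miR-142-5p had means of 0.007 and 0.025 and changed sign. gga-miR-1648* had ratios of -0.16, -0.15 and -0.17, at a mean signal of 26.3. gga-miR-449b* had -0.13, -0.28 and -0.02, of which that of array 2 includes its brightest spot. gga-miR-1677* had 0.27, -0.03 and 0.02, and gga-miR-126* had -0.06, -0.01 and 0.07, while its guide gga-miR-126 had 0.06, 0.16 and 0.17.

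**Figure D5:**
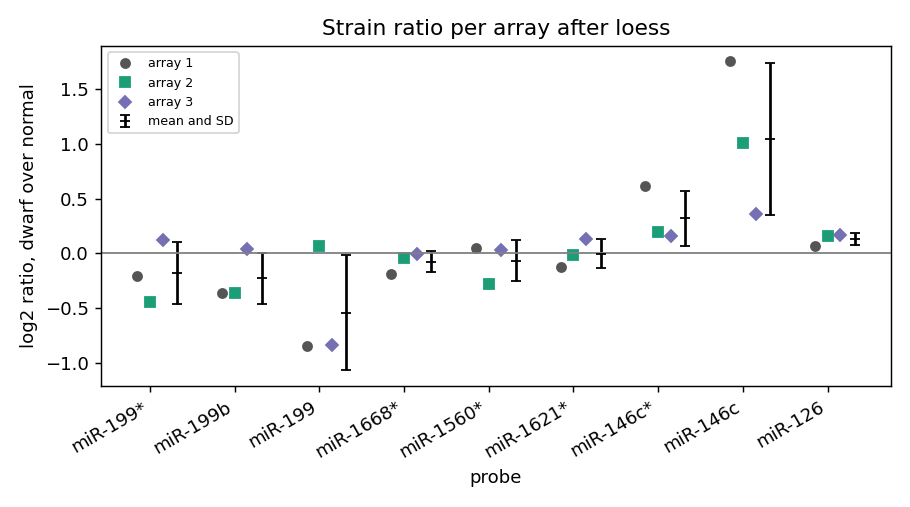
Log2 ratio of dwarf over normal after loess on each of the 3 arrays for star strands, their guides and gga-miR-199b, with the mean and SD beside them. gga-miR-199* lies between -0.44 and 0.12, and gga-miR-146c and its star lie above 0 on all 3 arrays.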

How the data were processed

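The authors deposited, for 3 two-colour arrays, linear spot intensities of each channel with no background per spot, and log2 ratios per miRNA that were background-subtracted and LOWESS-normalised. The deposited log2 ratios followed dwarf over normal on all arrays (Pearson r 0.935, 0.821 and 0.766 over 127 miRNAs, across genes). They served as an alternative.

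Intensities were corrected with normexp (offset 50, all spots), normalised by loess within each array (controls with weight 0) and averaged over 6 spots, with the sign turned on array 2. miRNAs with a mean signal over 32 were tested (127 of 542) with lmFit and eBayes in limma 3.58.1, R 4.3.3, with 2 residual and 1.82 prior degrees of freedom. Signal limits of 16 and 100 were alternatives to 32. The number of arrays limits the precision. The test was checked on simulated ratios. GEO's design text gives 9 embryos for each strain and 3 for each pool.

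Named were all star strands over 32 in at least 1 pool, with their guides. The members, lists and tests were chosen with earlier results of these data known.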

Additional observations from a re-analysis of the deposited data

How the results depend on the processing

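No star strand was called under any of 17 alternatives. The threshold was an adjusted p of 0.05, except where the methods' t-test was taken at its own unadjusted p of 0.01. With a mean signal over 100, only 1 star strand was tested. With no filter on low signals, 0 of 542 miRNAs passed the adjusted p. There 1 of 76 star strands had an unadjusted p under 0.05, and this share was not taken over all 542. Of these 76, 67 were over the limit of 32 in no pool. Over all tested miRNAs, limma called 2 with median centring and 3 with a dye coefficient, in place of 0. The difference in star strands over the limit, dwarf minus normal, was 1.33 at a limit of 16, in place of -1.33 at 32, and -3.50 to 0.50 with 1 array left out. The number in every pool was 2 after loess and Aquantile and 1 to 2 with 1 array left out. The guide was brighter in every pool in 16 to 17 pairs under all 8 alternatives, the star in 3 to 9, of 19 to 29 pairs. The median star ratio was -0.31 with median centring, -0.55 without normalisation and -0.29 in the authors' table. The median of all tested miRNAs was -0.26, -0.50 and -0.09 in the same order. gga-miR-199* was at -0.53 without normalisation, and its ratio minus that of its guide was 0.15 with a dye coefficient. gga-miR-1621* had a ratio of 0.019 with loess on detected miRNAs and -0.070 to 0.059 with 1 array left out, and gga-miR-1560* had -0.12 to 0.043 with 1 array left out. In the authors' table gga-miR-1560*, gga-miR-1668* and gga-miR-1621* had ratios of -0.50, -0.26 and -0.04. In the same order they had -0.34, -0.36 and -0.12 with median centring, and -0.58, -0.60 and -0.36 without normalisation. The causes were not tested. The main tests were paired by array. The methods' t-test, and limma with channels separated and no replicate block, were not paired, and each also called 0 star strands. Signals near the empty spots limit the ratios of all star strands but gga-miR-199*.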
